A study of Mus musculus with 24 samples.

Results

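GABA-A receptor subunit genes were followed in sorted sensory neurons of the dorsal root ganglion (DRG). The 7 genes described here, matched by symbol among 47643 gene identifiers, were the alpha subunit genes Gabra2, Gabra3 and Gabra5, the beta subunit genes Gabrb1 and Gabrb2, and the gamma subunit genes Gabrg1 and Gabrg3. They were chosen by gene family and not by their measured values. Other subunit genes of the family, apart from those listed further on, are not analysed here.

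GABA-A receptors are pentameric chloride channels that open when the transmitter GABA binds, and most native receptors combine alpha, beta and gamma subunits. GABA binds where an alpha and a beta subunit meet, while the kind of alpha subunit shapes affinity, kinetics and, together with a gamma subunit, the response to benzodiazepines. Sensory neurons keep a high internal chloride level, so that GABA depolarizes them, and receptors on their central terminals take part in presynaptic inhibition of sensory input to the spinal cord.

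The comparison was between 2 genotypes of mice aged 8 to 9 weeks on a mixed C57BL/6 and AJ background. Both carried Nav1.8-Cre, which acts in most nociceptors and in some neurons with myelinated axons, and a Rosa26-ZsGreen reporter. Control mice were Nav1.8-Cre; Tsc2 flox/+, and Nav-Tsc2 mice were Nav1.8-Cre; Tsc2 flox/null, so that control neurons keep 1 functional Tsc2 allele after recombination, and all cells of Nav-Tsc2 mice carry the null allele. Tsc2 encodes tuberin, an inhibitor of the growth-regulating kinase complex mTORC1. Each genotype had 4 mice, 2 male (replicates 1 and 2) and 2 female (replicates 3 and 4). The L4 DRG lay on the side opposite to the sciatic nerve that had been crushed 3 d before. From each mouse, 3 libraries were made from 100 GFP-positive cells each, and adding their counts made each mouse 1 sample. Levels are given as CPM, the counts relative to library size after TMM scaling, and a gene was called different when edgeR's quasi-likelihood test gave an adjusted p under 0.05 and the log2 fold change exceeded 0.5 or was below -0.5.

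The libraries held 8339220 to 34228180 counts on genes, with medians of 16882861 in control and 17062573 in Nav-Tsc2. Between 15925 and 18544 genes had a count in a control library, against 17891 to 20466 in a Nav-Tsc2 library. Tsc2 itself was at 20.9 ± 5.18 CPM in control and 8.87 ± 1.52 CPM in Nav-Tsc2 mice (SD, n = 4), a log2 fold change of -1.24 ± 0.22 (SE, adjusted p = 0.00400), with no overlap. Scn10a, the gene of the Nav1.8 channel that drives Cre, averaged 670 and 608 CPM (adjusted p = 0.526), so the defining marker of the sorted neurons was present in both groups. Library A of control replicate 3 stood apart, with a median correlation of 0.848 to the other control libraries against 0.874 for the next lowest and neuronal marker genes summing to 9599 CPM against 11578 for the next lowest, and results are given with and without it where they rest on it. Summed markers moved with genotype without overlap for peptidergic nociceptors (4 genes, 7225 to 17272 CPM in control and 2746 to 5258 in Nav-Tsc2), glia (14 genes, 2992 to 3122 and 1973 to 2561, where S100b was the gene called), endothelium (5 genes, 0.326 to 1.83 and 5.81 to 15.5), macrophages (6 genes, 0.669 to 3.92 and 7.90 to 17.3) and red blood cells (3 genes, 1.18 to 1.66 and 0.144 to 0.389). The endothelial sum moved mostly with Flt1, from a mean of 0.0338 to 8.56 CPM, and Kdr was also called (0.358 and 1.76). Pecam1, at 0 in some mice of both groups, averaged 0.422 and 0.315, Cldn5 0.0151 and 0.0239, and Cdh5 0.0511 and 0.115. Among macrophage genes Cx3cr1 was the gene called, from a mean of 0.0328 to 5.71, while Adgre1 averaged 0.196 and 0.102 and C1qa 0.0201 and 0.0212. Flt1 and Cx3cr1 passed the filter on low counts only through the Nav-Tsc2 mice, so their calls are no independent evidence of a difference. Sums overlapped for nonpeptidergic nociceptors (434 to 1306 CPM in control and 1303 to 1485 in Nav-Tsc2), A-fiber neurons (752 to 1334 and 627 to 904), low-threshold C-fiber neurons (25.1 to 268 and 154 to 1482), fibroblasts (73.1 to 236 and 121 to 196) and neurons as a whole (12742 to 15612 and 13954 to 16261), although within the last list Snap25 and Rbfox3 were called lower (log2 fold changes -1.10 and -0.83) and Prph higher (0.72). In the low-threshold C-fiber list Th was the gene called, higher (means of 99.4 and 865 CPM, log2 fold change 3.12). In the A-fiber list it was Cntnap2, lower (292 and 146 CPM, -1.01). No nonpeptidergic gene was called, although Mrgprd was at 21.9 to 325 CPM in control and 486 to 598 in Nav-Tsc2 mice. Fewer cells of a type and less RNA per cell cannot be told apart in such pools, and the part that these shifts have in the results below was not tested.

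Among the 7 members, 2 rose in Nav-Tsc2 mice, the alpha subunit gene Gabra3 and the beta subunit gene Gabrb1. None of the 6 that could be tested was called lower, none was lower at an unadjusted p under 0.05, and DESeq2 called the same number, 2 higher and 0 lower. Of all 17178 genes tested, 9.12% were called higher and 8.00% lower. The median log2 fold change of the 6 was 0.46, against 0.01 over all genes. Both members that rose also had no overlap between the mice of the genotypes, as 14.6% of all genes did in that direction.

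**Figure D1:**
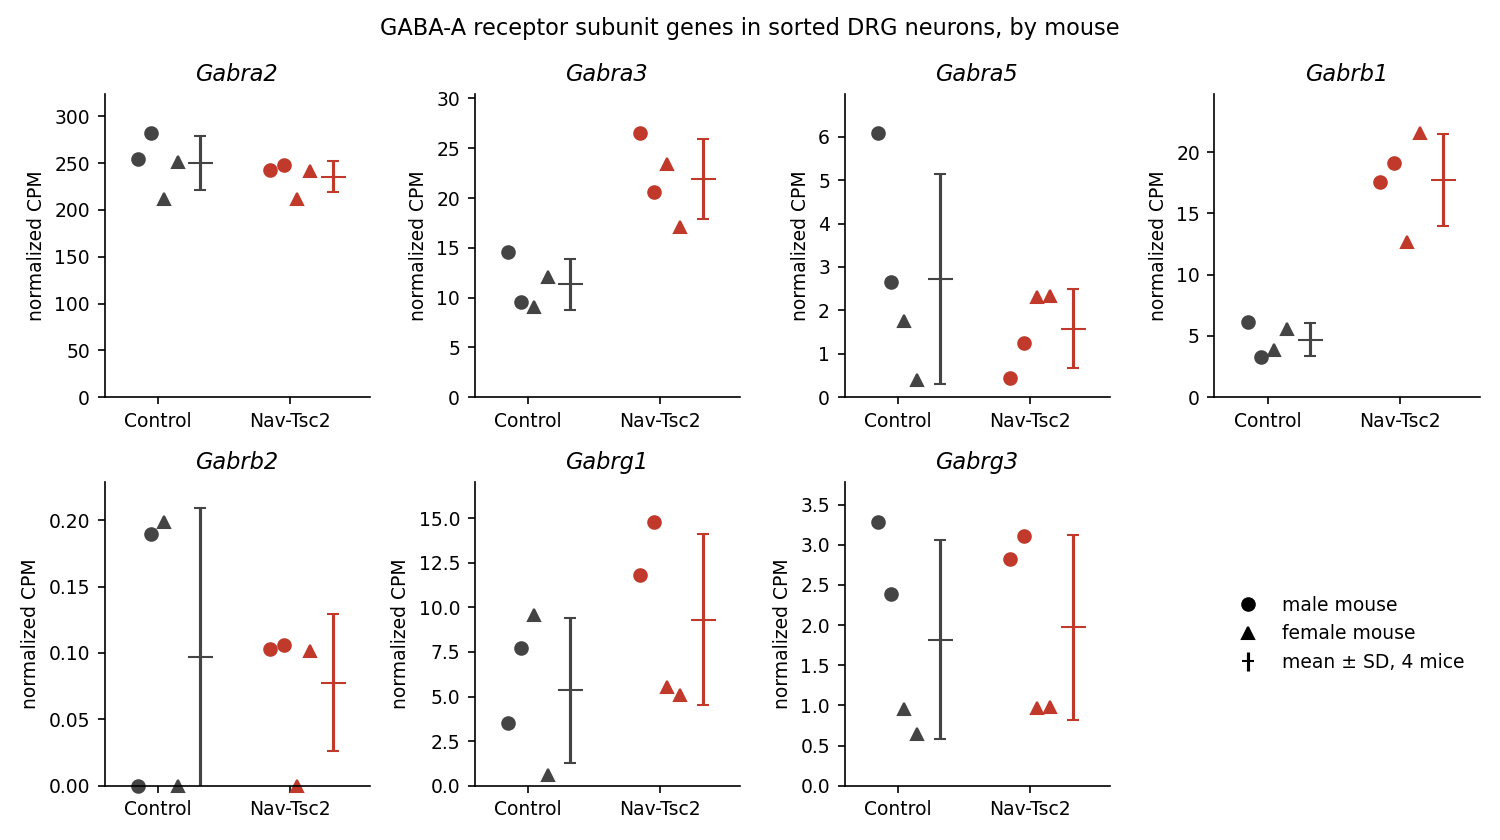
Normalized CPM (y axis, linear and starting at 0, scaled for each gene) of the 7 subunit genes in each of 4 control and 4 Nav-Tsc2 mice, with circles for males, triangles for females, and the mean and SD beside them. Gabra3 and Gabrb1 were higher in every Nav-Tsc2 mouse than in any control mouse, while the mice of the 2 genotypes overlapped for the other genes.

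Gabra3 encodes the alpha3 subunit and lies on the X chromosome (ENSMUSG00000031343.13, chrX:72432681-72656848 on the minus strand of GRCm38). In control mice it was at 14.6 and 9.52 CPM in the males and 9.10 and 12.1 CPM in the females. In Nav-Tsc2 mice it was at 26.5 and 20.6 CPM in the males and 23.4 and 17.1 CPM in the females. The lowest Nav-Tsc2 mouse was above the highest control mouse. The means were 11.3 ± 2.56 and 21.9 ± 4.00 CPM (SD, n = 4), a log2 fold change of 0.95 ± 0.20 (SE, adjusted p = 0.00943) or 1.93-fold, with a 95% interval from 1.41-fold to 2.64-fold. The fold was 1.95 within males and 1.91 within females. Without library A of control replicate 3, which held 11 Gabra3 counts, the log2 fold change was 0.86 (adjusted p = 0.00908).

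The difference was also visible between libraries, which hold different cells of the same mouse. Control libraries ran from 0.851 to 30.6 CPM with a median of 9.84, and Nav-Tsc2 libraries from 9.97 to 28.9 CPM with a median of 22.1. Thus 7 of 12 control libraries lay below every Nav-Tsc2 library, but the highest library of all was a control. More than 10 CPM was reached by 5 control and 11 Nav-Tsc2 libraries.

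Gabra2 encodes the alpha2 subunit (ENSMUSG00000000560.9, chr5:70957597-71095849, minus strand) and was the most abundant member per length in both genotypes. Control males were at 254 and 282 CPM and control females at 212 and 251 CPM. Nav-Tsc2 males were at 242 and 248 CPM and females at 211 and 241 CPM. The groups overlapped almost completely. The means of 250 ± 28.9 and 236 ± 16.5 CPM gave a log2 fold change of -0.08 ± 0.10 with a 95% interval from -0.31 to 0.14 (adjusted p = 0.611), which leaves out changes past the 0.5 threshold in either direction. With 52960 to 54116 counts per genotype, depth was not the limit for this gene. Without library A of control replicate 3, where Gabra2 was lowest at 107 CPM, the log2 fold change was -0.14 (adjusted p = 0.266).

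Gabra5 encodes the alpha5 subunit, best known from extrasynaptic receptors (ENSMUSG00000055078.7, chr7:57407672-57510059, minus strand), and 4.98% of its exon length is shared with an antisense gene, whose reads cannot be told apart without strand. The control males were at 6.08 and 2.65 CPM and the control females at 1.75 and 0.402 CPM. Among Nav-Tsc2 mice the males were at 0.432 and 1.26 CPM and the females at 2.30 and 2.34 CPM. The order of the genotypes thus differed between the sexes, with means of 4.37 in control and 0.844 in Nav-Tsc2 males against 1.08 and 2.32 CPM in females. Over all mice the log2 fold change was -0.78 ± 0.76 (adjusted p = 0.527) with a 95% interval from -2.49 to 0.93, and without control replicate 1, the highest mouse, it was -0.02 (adjusted p = 0.991). The difference of the log2 fold changes, females minus males, was 3.47 ± 1.21 with a 95% interval from 0.65 to 6.28, and it did not pass the correction over all genes (adjusted p = 0.449, 0.0221 before adjustment).

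The regions upstream of the annotated starts are printed for Gabra3, which rose, and for Gabra2, which did not pass the test, since they differ in CG content. Sequences are those of RefSeq on GRCm38.p6, 250 bases before the start, read 5′ to 3′ on the strand of the gene, with CG dinucleotides in capitals. All 7 members had an entry. The Gabra3 window is chrX:72656920-72657169 and the Gabra2 window chr5:71095850-71096099, both on the minus strand.
Gabra3: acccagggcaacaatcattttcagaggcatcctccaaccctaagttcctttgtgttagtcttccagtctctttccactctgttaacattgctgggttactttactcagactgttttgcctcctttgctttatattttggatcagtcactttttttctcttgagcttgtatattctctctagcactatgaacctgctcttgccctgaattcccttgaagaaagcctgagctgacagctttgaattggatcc
Gabra2: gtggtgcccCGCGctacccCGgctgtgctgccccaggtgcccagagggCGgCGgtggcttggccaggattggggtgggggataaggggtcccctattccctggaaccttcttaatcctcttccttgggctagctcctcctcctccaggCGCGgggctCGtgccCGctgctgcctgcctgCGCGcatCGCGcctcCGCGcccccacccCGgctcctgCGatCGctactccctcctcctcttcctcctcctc
The Gabra3 window held 0 CG and the Gabra2 window 18, more than 78.3% of 32851 annotated promoters, whose median was 6. Of the motifs searched on both strands, TATAAA was in the Gabra3 window and in 12.4% of all promoters, CCAAT was in both windows and in 33.8% of all, and GGGCGG was in the Gabra2 window and in 32.7% of all. Neither window held CACGTG (6.02% of all) or TGACGTCA (1.55% of all). These matches describe letters only.

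Gabrb1 encodes the beta1 subunit, which contributes to the GABA binding site (ENSMUSG00000029212.11, chr5:71658113-72149037, plus strand), and it had the largest fold change and the smallest adjusted p of the 6 members tested. Control males were at 6.12 and 3.24 CPM and control females at 3.89 and 5.54 CPM. Nav-Tsc2 males were at 17.5 and 19.1 CPM and females at 12.6 and 21.5 CPM. Every Nav-Tsc2 mouse exceeded the highest control mouse. The means were 4.70 ± 1.36 and 17.7 ± 3.76 CPM (SD, n = 4), a log2 fold change of 1.91 ± 0.26 (SE, adjusted p = 0.000950) or 3.77-fold, with a 95% interval from 2.53-fold to 5.62-fold. The fold was 3.92 within males and 3.62 within females. By log2 fold change Gabrb1 stood at rank 764 among the 17178 genes tested.

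Libraries of the genotypes were nearly separate for Gabrb1. Control libraries ran from 0.853 to 9.53 CPM (median 4.42) and Nav-Tsc2 libraries from 6.94 to 25.4 CPM (median 18.9). All but 1 of the 12 Nav-Tsc2 libraries, that is 11, were above every control library. The exception was library B of Nav-Tsc2 replicate 3, which was also the shallowest of all libraries at 8339220 counts. Without library A of control replicate 3, the log2 fold change was 1.85 (adjusted p = 0.000805). Of the exon length of Gabrb1, 0.332% is shared with the neighbouring gene Gabra4, which is transcribed from the opposite strand.

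**Figure D2:**
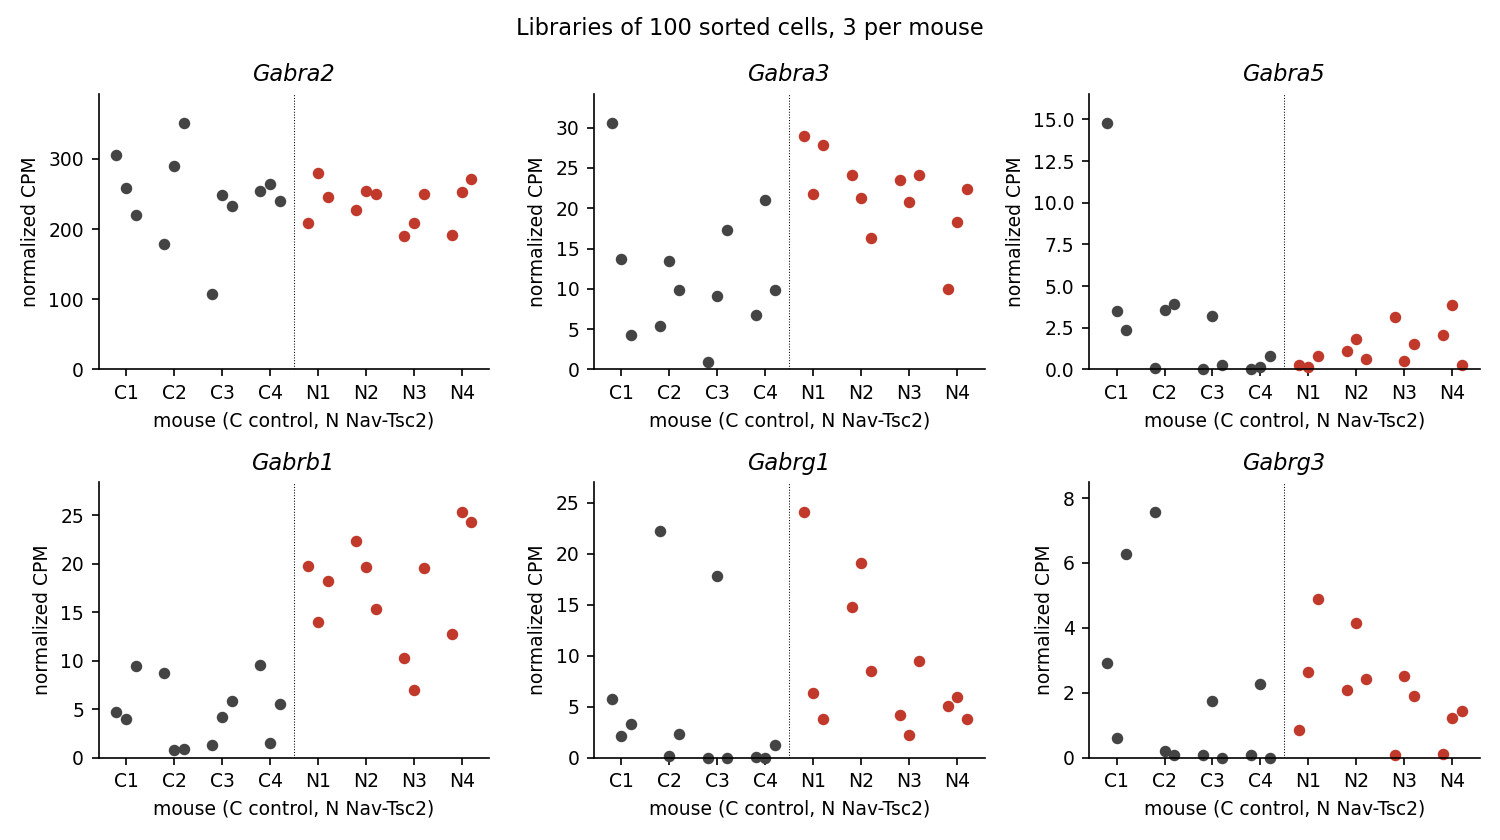
Normalized CPM (y axis, linear and starting at 0, scaled for each gene) in each library of 100 sorted cells, 3 per mouse, for the 6 members tested, with control mice C1 to C4 and Nav-Tsc2 mice N1 to N4 on the x axis. Gabrb1 was above every control library in 11 of 12 Nav-Tsc2 libraries, and for Gabrg1 and Gabrg3 the highest library of a control mouse held 44.0 to 100% and 69.6 to 98.1% of its counts.

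The window before the second annotated start of Gabrb1, chr5:71699682-71699931 on the plus strand, is shown because Gabrb1 was the other member that rose.
Gabrb1: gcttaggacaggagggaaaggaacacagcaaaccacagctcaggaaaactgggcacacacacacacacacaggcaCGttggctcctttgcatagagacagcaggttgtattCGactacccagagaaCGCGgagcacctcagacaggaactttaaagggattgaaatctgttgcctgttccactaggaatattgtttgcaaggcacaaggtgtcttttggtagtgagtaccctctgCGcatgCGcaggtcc
It held 6 CG, the median of all promoters, and none of the 5 motifs searched. The window before the first start held 18 CG, as many as that of Gabra2, and none of these motifs, and it is not printed because it lies over an exon of Gabra4.

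Gabrb2, the gene of the beta2 subunit (ENSMUSG00000007653.12, chr11:42419757-42629028, plus strand), was close to the detection limit and did not pass the filter on low counts. The control mice had 0, 10, 11 and 0 counts and the Nav-Tsc2 mice 5, 6, 0 and 6. Counts were found in 2 of 12 control and 6 of 12 Nav-Tsc2 libraries. The totals of 21 and 17 counts overlapped between mice, and a difference was not detectable at this depth. Without the filter, edgeR gave a log2 fold change of -0.32 (adjusted p = 0.926).

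Gabrg1 and Gabrg3 encode the gamma1 and gamma3 subunits, which are less widespread gamma subunits that can also complete a receptor. Gabrg1 (ENSMUSG00000001260.10, chr5:70751047-70842617, minus strand) was at 3.54 and 7.71 CPM in control males and 9.55 and 0.582 CPM in control females. In Nav-Tsc2 mice it was at 11.8 and 14.8 CPM in males and 5.52 and 5.09 CPM in females. Both Nav-Tsc2 males exceeded every control mouse, but the Nav-Tsc2 females did not. The means of 5.35 ± 4.05 and 9.31 ± 4.78 CPM gave a log2 fold change of 0.80 ± 0.69 with a 95% interval from -0.74 to 2.34 (adjusted p = 0.466).

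In control mice, the highest of the 3 libraries held 44.0 to 100% of the Gabrg1 counts of a mouse, with a median of 91.9%, and 3 control libraries had 0 counts. In Nav-Tsc2 mice the highest library held 51.2 to 73.0%, and every library had counts. A limma-voom fit to the 24 libraries that treated mouse as a random effect, which weights each library on the log scale, gave a log2 fold change of 2.97 (adjusted p = 0.0140). The median over all genes was 0.14 in that fit, and it called 2705 genes higher, against 1567 with summed counts. Its estimated correlation between libraries of a mouse was 0.063, so it treated the libraries almost as independent samples. The call for Gabrg1 thus differed between the fit to summed counts and the fit to libraries.

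Gabrg3 (ENSMUSG00000055026.13, chr7:56716465-57387188, minus strand) was at 3.29 and 2.39 CPM in control males and 0.959 and 0.643 CPM in control females. Nav-Tsc2 males were at 2.82 and 3.11 CPM and females at 0.964 and 0.982 CPM. The genotypes overlapped, with means of 1.82 ± 1.24 and 1.97 ± 1.16 CPM and a log2 fold change of 0.11 ± 0.63 (adjusted p = 0.929, 95% interval from -1.29 to 1.52). The highest library of a mouse held 69.6 to 98.1% of the counts in control and 55.2 to 62.0% in Nav-Tsc2 mice.

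**Figure D3:**
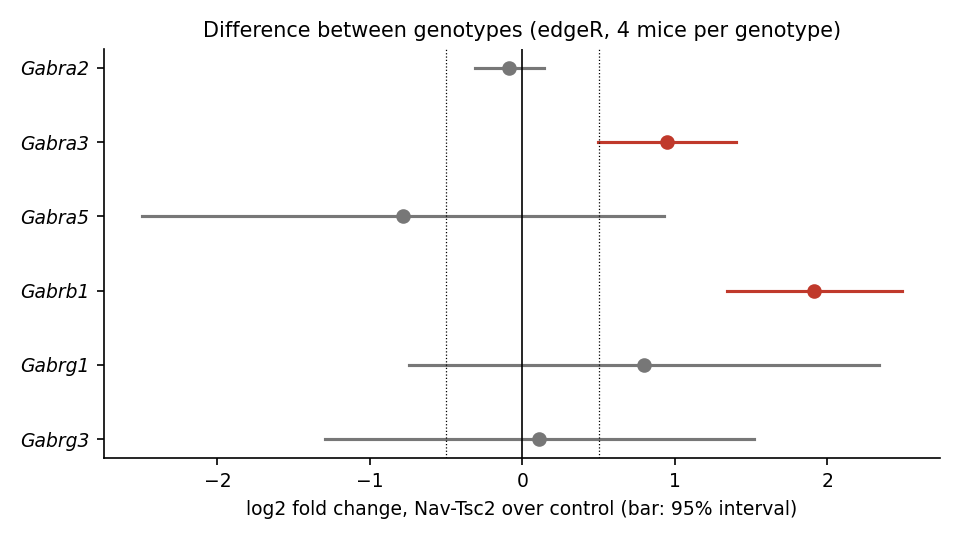
Log2 fold change of Nav-Tsc2 over control (x axis) for the 6 members tested (y axis) with 95% intervals from edgeR, 4 mice per genotype, and dotted lines at the threshold of 0.5 in either direction. Gabra3 and Gabrb1, in red, were called higher, the interval of Gabra2 stays within the dotted lines, and those of Gabra5, Gabrg1 and Gabrg3 are wide and include 0.

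Between the sexes, Gabrg3 had the largest log2 fold change of the 6 members tested, with means of 2.90 CPM in males and 0.887 CPM in females. All 4 males of both genotypes were above all 4 females. The share of all genes that separate the sexes in this way was not computed, so the separation only describes these mice. The log2 fold change, females minus males with genotype in the model, was -1.71 ± 0.36 with a 95% interval from -2.52 to -0.90. It did not pass edgeR's correction over all genes (adjusted p = 0.539), whereas DESeq2 gave -1.72 (adjusted p = 0.00521). For the other members, Gabra3 on the X chromosome included, edgeR gave adjusted p from 0.762 to 0.988. edgeR called 0 members between the sexes, with Gabrg3 the 1 member at an unadjusted p under 0.05. Of all genes, 0.0291% were called, 0.0233% lower and 0.00582% higher in females, and 1144 of 17178 had an unadjusted p under 0.05. For the interaction of genotype and sex, 0 members were called by edgeR and by DESeq2, and edgeR called 0.00582% of all genes. In edgeR an unadjusted p under 0.05 was found for 1 member (Gabra5) and for 1583 of all 17178 genes. Each sex was 2 mice per genotype, and sex cannot be told apart from anything else that these replicate numbers share.

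Per kb of exon, where levels of different genes can be compared, Gabra2 led in both genotypes with 32.7 ± 3.78 CPM per kb in control and 30.8 ± 2.16 in Nav-Tsc2 mice. Gabra3 came next with 2.89 ± 0.653 and 5.59 ± 1.02 CPM per kb. In control mice Gabra5 (0.915), Gabrg1 (0.679), Gabrb1 (0.339) and Gabrg3 (0.152) followed, with ranges over mice that overlapped between neighbours. In Nav-Tsc2 mice the order was Gabrb1 (1.28), Gabrg1 (1.18), Gabra5 (0.532) and Gabrg3 (0.165), again with overlapping neighbours. Gabrb2 came last at 0.0153 and 0.0122 CPM per kb. Gabrb1 thus stood at rank 5 in control and at rank 3 in Nav-Tsc2 mice, or at rank 4 there, behind Gabrg1, with the longest transcript as length.

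The relative makeup of the 7 transcripts per length shifted accordingly. Gabra2 made up 86.8 ± 3.10% of the sum in control (82.8 to 89.8%) and 77.9 ± 2.14% in Nav-Tsc2 mice (76.2 to 80.9%). Gabra3 made up 7.92 ± 1.49% of the 3 alpha transcripts in control and 15.1 ± 2.76% in Nav-Tsc2 mice, and Gabrb1 0.906 ± 0.253% and 3.22 ± 0.608% of all 7. The ranges over mice did not overlap for these shares. The level of Gabra2 was 103 ± 37.5 times that of Gabrb1 per kb in control and 24.8 ± 4.17 times in Nav-Tsc2 mice. The sum over the 7 was 37.7 ± 4.22 and 39.6 ± 2.65 CPM per kb. These shares follow from the same counts as the fold changes above and cover only these 7 genes.

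**Figure D4:**
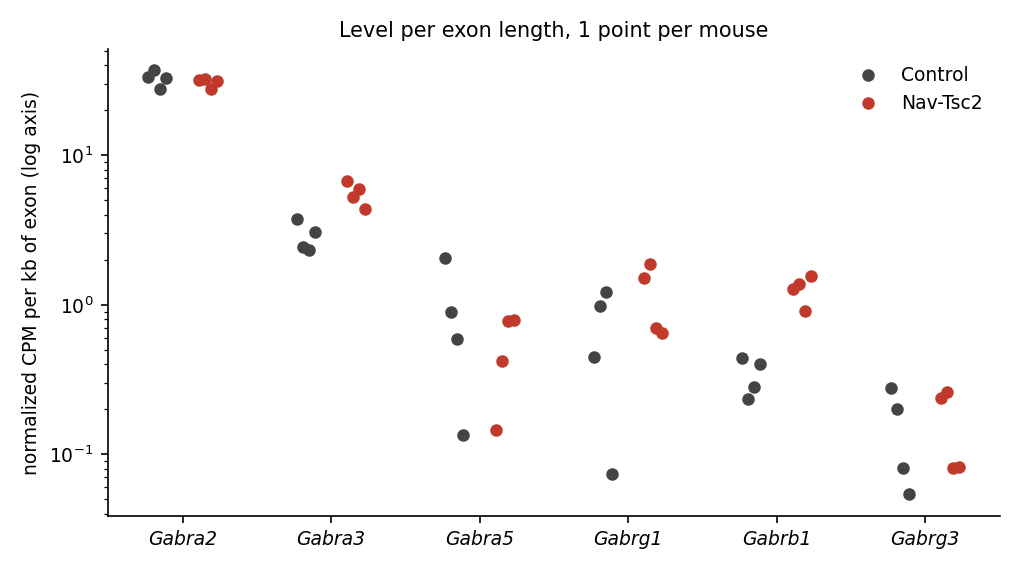
Normalized CPM per kb of exon (y axis, log scale) of 6 members in each of 4 control and 4 Nav-Tsc2 mice. Gabra2 lies around 30.8 to 32.7 CPM per kb in both genotypes, Gabra3 and Gabrb1 are higher in Nav-Tsc2 mice, and Gabrb2, at 0 in some mice, is not drawn.

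From library to library, with the mean of each mouse removed, Gabra2 and Gabra3 went together most closely among the members (Pearson r = 0.753 over 24 libraries, 0.533 without library A of control replicate 3). Gabrb1 followed Gabrg1 (r = 0.531, 0.470 without that library) more than Gabra2 (r = -0.05, -0.45 without it) or Gabra3 (r = -0.06, -0.44 without it). Among 8445 genes averaging at least 10 CPM, those most like Gabra2 were Ppp1r7, a regulatory subunit of a protein phosphatase (r = 0.861), and Dffa, an inhibitor of a DNase (r = 0.857). Those most like Gabra3 were Dnajc5, a chaperone of synaptic vesicles (r = 0.888), and Chmp3, a component of the membrane-remodelling ESCRT machinery (r = 0.879). For Gabrb1 they were Srpk2, a kinase of splicing factors (r = 0.860), and Camta2, a transcription activator (r = 0.853). Without that library these values were 0.790, 0.695, 0.792, 0.764, 0.840 and 0.845. The libraries share mice and depth, so the correlations are descriptions without a p.

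Gabrg1, Gabra2 and Gabrb1 lie on chromosome 5, with 115 kb between Gabrg1 and Gabra2 and 562 kb between Gabra2 and Gabrb1, and only the last of them was called. Gabrg3 and Gabra5 lie 20.5 kb apart on chromosome 7, and neither was called between genotypes.

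Of 51 other genes that build, anchor, supply or modulate GABA receptors, 42 could be tested, and edgeR called 2 higher and 2 lower in Nav-Tsc2 mice, beside 9.12% and 8.00% of all genes, with a median log2 fold change of 0.17. Among 18 genes of receptor assembly, trafficking and anchoring, Lhfpl4, whose product links GABA-A receptors to neuroligin at inhibitory synapses, fell from 126 ± 7.84 to 76.5 ± 4.46 CPM (log2 fold change -0.72 ± 0.08, adjusted p = 0.000430). For Gphn, the gene of the scaffold gephyrin, the log2 fold change was -0.41 ± 0.10 (adjusted p = 0.0213), short of the size threshold. Gabarap, encoding a receptor-associated trafficking protein, had 0.34 ± 0.08 (adjusted p = 0.0182), also short of it. The other 15 did not pass the test with the size threshold either.

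Other receptor subunits were scarce. Of 8 listed, only Gabra4 and Gabrr1 passed the filter, and neither was called by edgeR or DESeq2 or had an unadjusted p under 0.05. Gabra4, the alpha4 gene next to Gabrb1, was at 2.27 ± 1.77 and 0.788 ± 0.604 CPM (log2 fold change -1.52 ± 1.29, adjusted p = 0.457). Gabrr1, a rho subunit gene, had 30 counts in control and 255 in Nav-Tsc2 mice (log2 fold change 3.13 ± 1.72, adjusted p = 0.237). Of the 30 control counts, 27 came from library A of control replicate 3, and without that library edgeR gave a log2 fold change of 6.16 (adjusted p = 0.0249). That fit kept the low-count filter of the full counts, while the counts left lay almost all in Nav-Tsc2 mice. Its adjusted p is therefore no independent evidence of a difference.

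Among 7 tested genes of chloride cotransport, Slc12a7, a potassium-chloride cotransporter gene, rose from 6.71 ± 4.37 to 36.3 ± 18.8 CPM (log2 fold change 2.43 ± 0.55, adjusted p = 0.0132), with overlap between 4.34 to 13.3 CPM in control and 9.10 to 52.1 CPM in Nav-Tsc2 mice. With the replicate number as a block its adjusted p was 0.0689. Slc12a2, the cotransporter that loads sensory neurons with chloride, was at 81.5 ± 17.5 and 71.1 ± 5.39 CPM (log2 fold change -0.20 ± 0.14, adjusted p = 0.383). Slc12a5, the neuronal chloride extruder, had 18 and 88 counts and was not tested.

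Of 6 tested genes of GABA synthesis, transport and breakdown, edgeR called 1, Slc6a12, a betaine and GABA transporter gene. It had 0 counts in all 12 control libraries and 123 in Nav-Tsc2 mice, found in 7 of 12 libraries, and its mean of 0.549 ± 0.250 CPM was at least 39.7-fold higher than a floor of 3 counts over the control group. It passed the filter on low counts only through the Nav-Tsc2 mice, where it was high, so its call is no independent evidence of a difference. DESeq2 called 2 genes of this list, Slc6a12 and Slc6a13, another GABA transporter gene, which was at 1.41 ± 1.58 and 4.70 ± 2.19 CPM (adjusted p = 0.0422 by DESeq2 and 0.124 by edgeR). Without control replicate 4, edgeR gave Slc6a13 a log2 fold change of 2.90 in place of 1.74 (adjusted p = 0.00900). Gad1, which makes GABA, was at 1.44 ± 2.00 and 1.42 ± 1.09 CPM (log2 fold change -0.02 ± 1.14, adjusted p = 0.992).

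None of the 6 genes of the metabotropic GABA-B receptor and its associated KCTD proteins was called by edgeR or DESeq2, and 2 had an unadjusted p under 0.05. These were the receptor subunit genes Gabbr1 (109 ± 21.9 and 148 ± 9.06 CPM, log2 fold change 0.44 ± 0.14, adjusted p = 0.0455) and Gabbr2 (85.0 ± 14.3 and 109 ± 2.29 CPM, 0.36 ± 0.12, adjusted p = 0.0573). Among 3 genes of modulators, Srd5a1, a reductase in the synthesis of neurosteroids that act on GABA-A receptors, fell from 14.9 ± 3.47 to 6.72 ± 1.71 CPM (log2 fold change -1.15 ± 0.25, adjusted p = 0.0102).

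**Figure D5:**
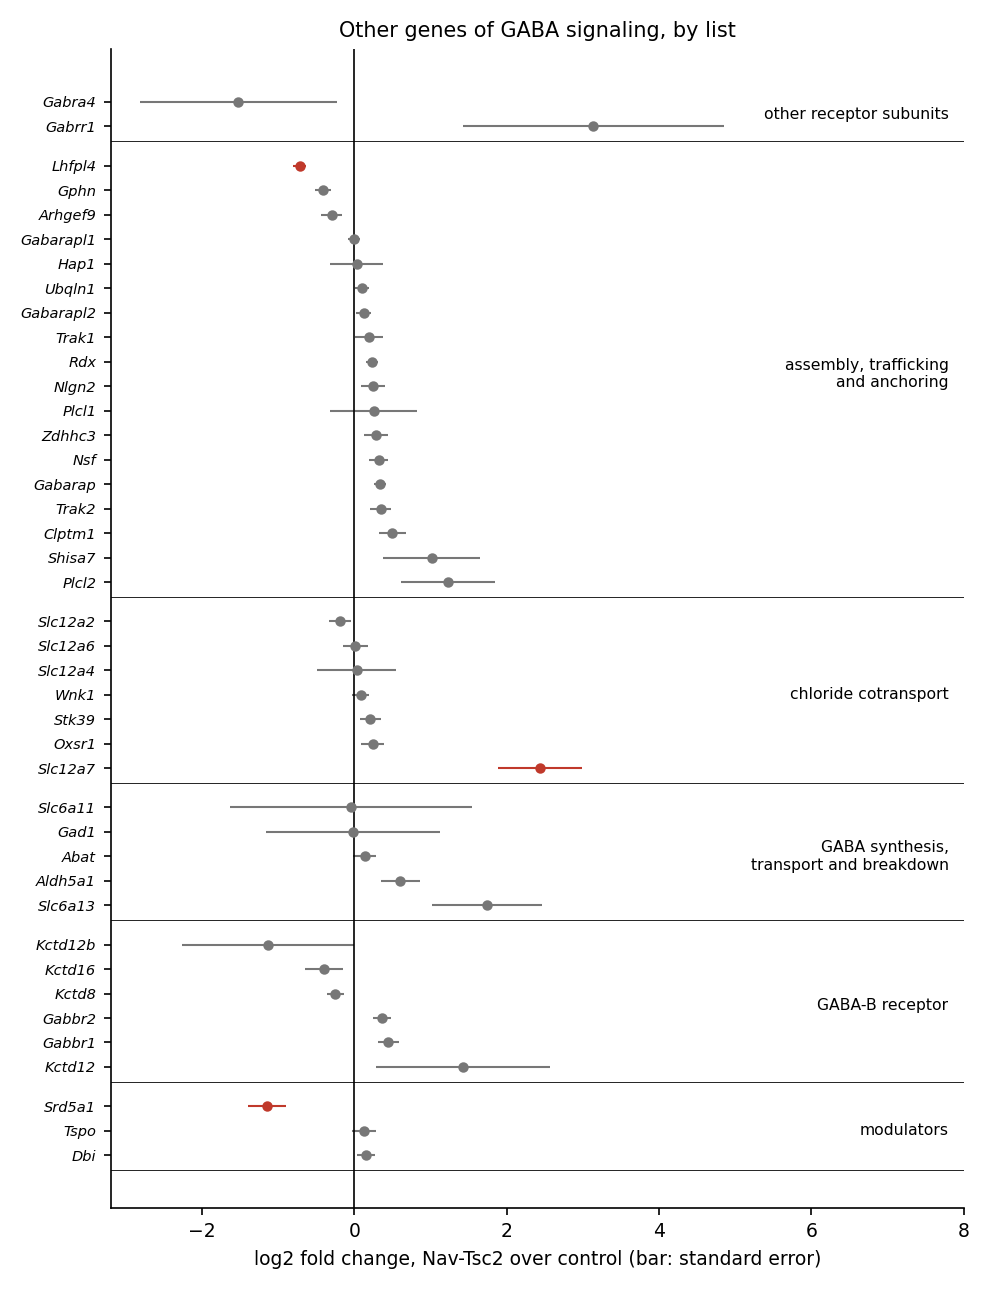
Log2 fold change of Nav-Tsc2 over control (x axis; bars are standard errors from edgeR, 4 mice per genotype) for the tested genes of 6 lists of GABA signaling (y axis), with called genes in red. Lhfpl4 at -0.72 and Srd5a1 at -1.15 lie to the left and Slc12a7 at 2.43 to the right, and Slc6a12 is left out because its control libraries all held 0 counts.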

How the data were processed

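RNA of 24 libraries from 8 mice, made with the SMARTer Ultra Low kit, which does not keep strand, was sequenced. Per the labels and the study's methods, the authors checked reads with FastQC, aligned them to mm10 with STAR and counted them per gene with HTSeq; versions and the strand setting are not given in the sources used here. The deposited values are raw counts per gene, not normalized. A further deposited table with the authors' own DESeq2 comparison and normalized values was not used. Symbols and exons came from GENCODE M21 annotation of GRCm38, which named 47224 of 47643 identifiers. Reads aligned to more than 1 place made up 37.5 to 42.6% and ambiguous reads 2.18 to 2.58% of all records, and the rows that name no gene, 47.6 to 55.9% of records in all, were left out. No pair of libraries was identical.

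Counts were added over the 3 libraries from each mouse. Genotypes were compared with edgeR 4.0.16 (R 4.3.3; TMM, filterByExpr, quasi-likelihood F-test, Benjamini-Hochberg adjustment over 17178 genes), and sex and the interaction of genotype and sex with the same tool. Intervals are 95% intervals of the fit. The scripts were tested on simulated counts. Alternatives were DESeq2 1.42.0, other scalings, no filter, the replicate number as a block, a sex term, equal weight of libraries, limma 3.58.1 on single libraries with mouse as random effect, and leaving out each mouse. Leaving out library A of control replicate 3, and all alternatives for the other GABA genes, were chosen after seeing the data. Same-numbered mice deviated together over 8445 genes (r = 0.184, 0.185, 0.108 and 0.199 for replicates 1 to 4). They also share sex, and differently numbered mice of the same sex were not compared, so these values cannot show that the numbers pair the mice. The main fit used no pairing, and the replicate block was run as an alternative. The members, gene lists and markers were chosen with earlier results of these data known. Named were Tsc2, the members, list genes called in each direction (at most 4 with the smallest adjusted p), the 2 genes most like each member averaging at least 10 CPM, and the defining markers. S100b, Flt1, Kdr, Cldn5, Cdh5, Cx3cr1, Adgre1, C1qa, Snap25, Rbfox3, Prph, Slc6a13, Gphn, Gabarap, Gabra4, Gabrr1, Slc12a2, Slc12a5, Gad1, Gabbr1 and Gabbr2 were added for their role after values were seen. Likeness used log2(CPM + 1). Promoters are RefSeq sequences on GRCm38.p6.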

Additional observations from a re-analysis of the deposited data

Results flagged for a closer look

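Among 14 groups of 4 mice, 1 mouse was far from the others of its group. Gabrb2 was at 0 CPM in Nav-Tsc2 replicate 3, while the other 3 Nav-Tsc2 mice lay at 0.102 to 0.106 CPM. These values stand for 0 counts against 5 to 6 counts per mouse, and about 1 in 20 groups is marked by chance.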

How the results depend on the processing

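The calls of Gabra3 and Gabrb1 held in all 17 alternatives run, with log2 fold changes of 0.85 to 1.22 (adjusted p 0.000238 to 0.0355) and 1.77 to 2.23 (adjusted p 7.16e-11 to 0.00480). With the replicate block they were 0.96 (adjusted p = 0.0203) and 1.93 (adjusted p = 0.00478), and no call of a member changed. Gabra2 stayed between -0.16 and -0.02. In the fit to 24 single libraries with mouse as random effect, Gabra5 reversed to 0.29 and Gabrg1 reached 2.97; that fit called 2705 genes higher and 1339 lower over all genes, against 1567 and 1374. When each mouse was left out in turn, Gabrg3 ran from -0.21 to 0.56, and it reversed without control replicate 3 (-0.11), control replicate 4 (-0.17), Nav-Tsc2 replicate 1 (-0.11) or Nav-Tsc2 replicate 2 (-0.21); the cause was not tested. DESeq2 called 1 member, Gabrg3, lower in females, where edgeR called 0. With the longest transcript as length, 5 of 7 members kept their rank in each genotype; Gabrg1 changed places with Gabra5 in control and with Gabrb1 in Nav-Tsc2 mice. Of the other GABA genes, 1 was called higher with the replicate block (without Slc12a7) and 7 in the fit to libraries, against 2, and leaving out a mouse gave 2 to 5, with 5 without control replicate 3 and 4 without control replicate 4. Between the sexes, DESeq2 called 108 genes and edgeR without the filter 344, against 5, and for the interaction 296 and 618, against 1. Depth limits Gabrb2.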
